A study of Arabidopsis thaliana with 31 samples.

Results

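The transcripts described here are those of the chloroplast genome, in whole seedlings of Arabidopsis thaliana. They were selected on their measured level: the rows whose gene ID begins with ATCG and whose mean over all libraries of an experiment was at least 1 TMM-scaled TPM, a length-normalised transcript level that the authors rescaled between libraries. The rule kept 97 of 133 chloroplast rows in experiment A and 96 of 133 in experiment B, out of 32833 rows in each table. Of these, 91 were in both sets, 6 in A only and 5 in B only, and 31 rows were in neither. The rule used the mean level over all libraries, so the levels themselves are given as a description. The members just inside the limit were rrn4.5S (ATCG01170) and psbC at 1.0 in A, and ATCG00410 at 1.07 and ATCG01160 at 1.08 in B. Just outside were ATCG01030 at 0.862 and ATCG01140 at 0.841 in A, and ATCG00230 at 0.935 and ATCG01140 at 0.895 in B. A group mean of at least 1 was reached in all 4 genotypes by 74 members in A and by 87 in B, so the other members entered through their level in some genotypes. In A, 2 members reached it in 1 genotype only.

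RNA was sequenced from seedlings harvested 12 days after germination. All seeds had been stratified at 4 °C for 4 days, and plants grew on soil under long days at about 21 °C. Experiment A held wild-type Col-0 (n = 2), the single mutants gcn5-7 and arp6-1 (n = 3 each) and the double mutant gcn5-7 arp6-1 (n = 3). Experiment B held Col-0, gcn5-7, the double mutant nrp1-1 nrp2-2 and the triple mutant gcn5-7 nrp1-1 nrp2-2 (n = 5 each). GCN5 is a histone acetyltransferase, ARP6 a subunit of the SWR1 complex that places the histone variant H2A.Z in nucleosomes, and NRP1 and NRP2 are histone chaperones. All of these act on nuclear chromatin, and the chloroplast genome carries no histones. Nothing in the labels ties replicates to separate cultures or sets of plants, and the p-values speak of the spread among these libraries alone, which may be technical.

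The chloroplast genome encodes core subunits of the photosystems, the cytochrome b6f complex, the ATP synthase, the NDH complex and Rubisco, together with part of the machinery that expresses them. Its genes are transcribed by a bacterial-type polymerase, whose core subunits are encoded by the plastid rpo genes and whose sigma factors come from the nucleus, and by a phage-type polymerase encoded in the nucleus. The rpo genes and several ribosomal protein genes are known as targets of the nuclear-encoded polymerase, and the photosynthesis genes as targets of the plastid-encoded one. The ribosomal RNAs lie in a cluster in the inverted repeat, a segment that the plastid genome holds as 2 copies.

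Members were named by length. In each library the value times the exon length was a whole multiple of the worth of 1 read, which gave the exon length of each row. Of the 133 chloroplast rows, 71 matched the length of a single gene name in the plastid annotation. A further 32 had a transfer RNA's length, 16 had a length that several genes share, 9 matched no plastid gene of that annotation, and 5 had values above 0 in under 5 libraries. Rows whose name was not settled are given by ID. The rows ATCG00020 and ATCG00270 share the length of psbA and psbD, which encode the photosystem II reaction centre proteins D1 and D2, and were counted with photosystem II without saying which is which.

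The results turn on a set of very short protein genes and on the ribosomal RNAs. Sequences are shown for psbM and psbI, which encode small photosystem II subunits, for petN and petL, which encode small cytochrome b6f subunits, and for the 4.5S ribosomal RNA. They were read 5′ to 3′ from the RefSeq plastid genome of assembly TAIR10.1, where the chromosome is named Pltd and holds 154478 bases. Capitals mark the start and stop codons, and the ribosomal RNA has none. The protein genes hold 105 bases for psbM, 90 for petN, 111 for psbI and 96 for petL.
psbM (Pltd:28707-28811, minus strand): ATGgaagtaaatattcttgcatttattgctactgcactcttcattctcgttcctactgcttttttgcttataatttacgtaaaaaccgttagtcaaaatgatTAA
petN (Pltd:28089-28178, plus strand): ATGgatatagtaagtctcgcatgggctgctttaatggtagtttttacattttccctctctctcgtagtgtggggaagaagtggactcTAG
psbI (Pltd:7583-7693, plus strand): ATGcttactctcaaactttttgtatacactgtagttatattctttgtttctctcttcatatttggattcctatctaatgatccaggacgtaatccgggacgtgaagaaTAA
petL (Pltd:65712-65807, plus strand): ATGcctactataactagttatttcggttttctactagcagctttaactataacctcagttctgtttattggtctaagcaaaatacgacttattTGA
rrn4.5S (Pltd:107599-107701, plus strand): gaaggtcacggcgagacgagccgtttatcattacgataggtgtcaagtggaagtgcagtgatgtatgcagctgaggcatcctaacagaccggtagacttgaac

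Depth recovered from the values was between 38.3 and 39.6 M reads for libraries of A and between 10.3 and 16.8 M reads for those of B. The members together held 10046 to 18442 reads a library in A and 5823 to 99175 in B. The labelled mutations were checked on the targeted genes. The ARP6 transcript was at 0.109 to 0.363 in arp6-1 and 0.291 to 0.775 in gcn5-7 arp6-1, against 18.2 to 36.1 in Col-0 of A. The NRP2 transcript was at 0.00 to 0.403 in nrp1-1 nrp2-2 and at 0.00 in each of the triple mutant libraries, against 9.16 to 14.4 in Col-0 of B. NRP1 was at 4.38 to 9.28 and 9.70 to 13 in those mutants, against 19.8 to 31.3. GCN5 transcript in gcn5-7 overlapped Col-0 in both experiments (4.87 to 10.2 against 5.99 to 7.48 in A, 3.55 to 6.78 against 3.65 to 7.15 in B), so its level does not check the gcn5-7 label. The green leaf markers were high in every library and the seed markers summed to at most 0.380 ppm (parts per 1 M of the column sum).

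By role, members differed widely in mean level over all libraries. The 15 photosystem II members lay between 1.0 and 225 TMM-scaled TPM in A and between 2.38 and 67.3 in B, with psbM highest in both. The 4 cytochrome b6f members lay between 1.5 and 63.6 in A and between 2.54 and 13 in B, and the 4 ATP synthase members from 3.38 to 15.5 and from 2.91 to 22.8. The highest of the latter in B was atpE, the epsilon subunit. Of photosystem I, the small subunit gene psaJ was a member in both, at 57.6 and 33.0, and the core genes psaA and psaB only in B, at 2.64 and 2.36. The 3 NDH members lay between 1.13 and 1.87 in A and between 2.28 and 2.76 in B, with ndhK highest in B. The protease subunit gene clpP and the envelope protein gene cemA were at 11.7 and 9.18 in B. Ribosomal protein rows, 18 in A and 17 in B, ran from 1.14 to 334 and from 1.2 to 124, with rpl32 highest in both. Rows of transfer RNA length, 23 in A and 20 in B, ran from 1.09 to 52.4 and from 1.07 to 37.2, and rows not settled by length, 17 and 18, from 1.19 to 20.3 and from 1.08 to 13.1.

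Chloroplast transcripts made up a small share of each library, and that share varied as much between replicates of 1 genotype as between genotypes. In experiment B the share of the column sum in Col-0 was 0.667, 0.384, 0.0980, 0.170 and 0.130% in replicates 1 to 5. In gcn5-7 it was 0.135, 0.134, 0.0962, 0.116 and 0.118%. In nrp1-1 nrp2-2 it was 0.548, 0.198, 0.101, 0.129 and 0.135%. In the triple mutant it was 0.300, 0.550, 0.210, 0.143 and 0.120%. Replicates 1 and 2 were the highest of their group in Col-0, nrp1-1 nrp2-2, the triple mutant and gcn5-7, but in gcn5-7 they exceeded replicate 5 by little. The group means were 0.290 ± 0.238% in Col-0, 0.120 ± 0.0158% in gcn5-7, 0.222 ± 0.185% in nrp1-1 nrp2-2 and 0.265 ± 0.174% in gcn5-7 nrp1-1 nrp2-2 (SD, n = 5 each). The gcn5-7 libraries overlapped the lower Col-0 libraries, and gcn5-7 replicate 3 was the lowest of both groups. In bulk tissue, fewer chloroplast-bearing cells and less chloroplast RNA per cell cannot be told apart.

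**Figure D1:**
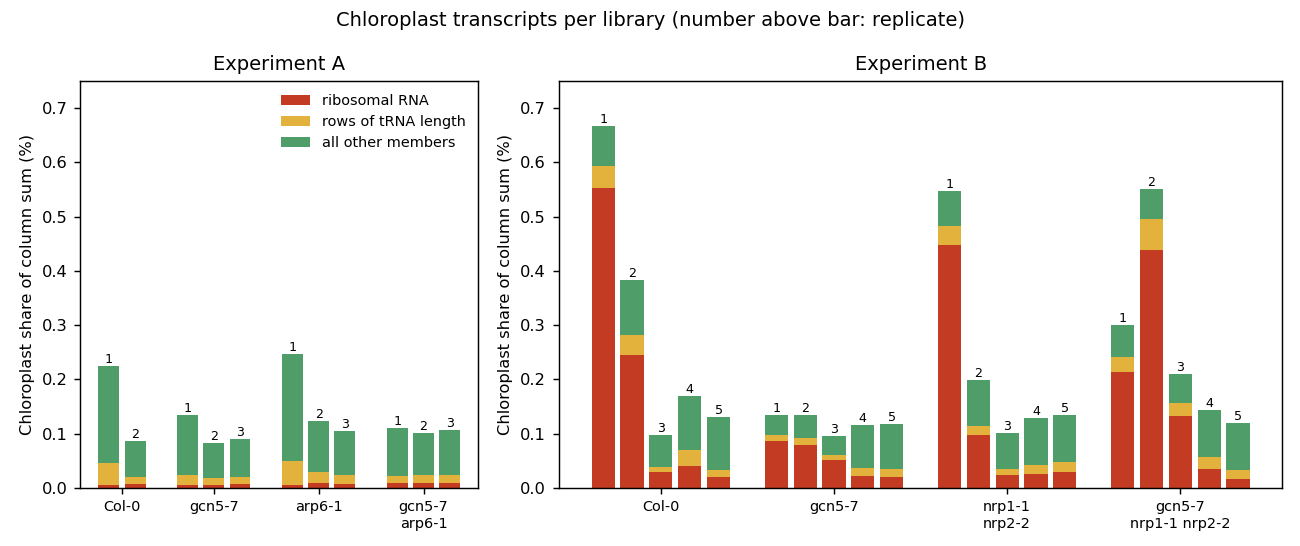
Share of the column sum (%, vertical axis) held by chloroplast members in each library of both experiments, by genotype, with bars split into ribosomal RNA, rows of transfer RNA length and all other members and the replicate number above each bar. The tall bars of B, up to 0.667% in Col-0 replicate 1, are mostly ribosomal RNA, whereas those of A are mostly other members.

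In experiment B most of this variation lay in ribosomal RNA. The ribosomal RNA members held 0.552, 0.244, 0.0296, 0.0405 and 0.0189% of the column sum in Col-0 replicates 1 to 5. They held 0.0853, 0.0793, 0.0503, 0.0212 and 0.0199% in gcn5-7. They held 0.448, 0.0965, 0.0233, 0.0257 and 0.0282% in nrp1-1 nrp2-2, and 0.213, 0.438, 0.133, 0.0338 and 0.0161% in gcn5-7 nrp1-1 nrp2-2. In each of the 4 genotypes replicates 1 and 2 held more ribosomal RNA than replicates 3, 4 and 5. With the named ribosomal RNA rows and the rows of transfer RNA length left out, and the unsettled rows kept, the share ran from 0.0598 to 0.102% in Col-0, 0.0360 to 0.0834% in gcn5-7, 0.0653 to 0.0880% in nrp1-1 nrp2-2 and 0.0535 to 0.0876% in gcn5-7 nrp1-1 nrp2-2. The corresponding means were 0.0865 ± 0.0190, 0.0559 ± 0.0236, 0.0779 ± 0.0113 and 0.0680 ± 0.0172% (SD, n = 5 each).

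The 23S ribosomal RNA of the large ribosomal subunit (ATCG01180) was the most abundant member of B, with a mean of 406 TMM-scaled TPM. Its level was 1895, 737, 67.3, 106 and 51.0 in Col-0 replicates 1 to 5. It was 159, 162, 93.3, 52.6 and 42.4 in gcn5-7. It was 1628, 453, 64.1, 68.8 and 86.6 in nrp1-1 nrp2-2, and 566, 1484, 264, 86.9 and 44.8 in gcn5-7 nrp1-1 nrp2-2. Replicates 1 and 2 were the highest of each genotype, and the genotypes overlapped. The 16S ribosomal RNA of the small subunit (ATCG00920) followed it, from 31.8 to 1634 in Col-0 and from 27.3 to 159 in gcn5-7. The 4.5S ribosomal RNA (ATCG00960) ran from 2.49 to 101 in Col-0 and from 1.97 to 6.42 in gcn5-7, on 3 to 64 and 2 to 8 reads. Among members with a mean of at least 5, the rrn4.5S rows had the highest ratio of mean share in Col-0 to mean share in gcn5-7, at 5.46 (ATCG01170) and 5.21 (ATCG00960), with rrn23S next at 3.46 (ATCG00950). These ratios rested on Col-0 replicate 1: without it they were 2.96, 2.83 and 1.62, below petL, which went from 3.15 to 3.27. The lowest ratios were those of rpoB at 0.77, ATCG00905 at 0.82 and ATCG01230 at 0.83, and without that library 0.93, 0.97 and 0.97. None of the 6 ribosomal RNA members passed the test in any comparison of B; for rrn23S (ATCG01180) in gcn5-7 against Col-0 the log2 fold change was -1.31 ± 1.08 (SE; limma adjusted p = 0.371).

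The row ATCG01200, of transfer RNA length, stood high in the libraries with much ribosomal RNA. It was at 122, 69.7, 4.96, 30.8 and 1.17 in Col-0 replicates 1 to 5 and at 43.7, 218, 29.96, 21.8 and 5.47 in the triple mutant. The rows ATCG00930 and ATCG01200 carried nearly equal values, and ATCG00930 stands between rrn16S and rrn23S in the order of IDs. In Col-0 and the triple mutant its highest libraries were replicates 1 and 2, and in gcn5-7 its 3 highest, at 15.3, 19.2 and 16.2, were replicates 1 to 3.

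Among protein genes the replicates moved in different directions. The mRNA of rbcL, the large subunit of Rubisco, was at 36.7, 28.3, 6.87, 10.4 and 9.14 in Col-0 replicates 1 to 5, at 5.29, 5.98, 5.61, 8.98 and 6.03 in gcn5-7, at 37.9, 19.9, 6.91, 9.51 and 8.74 in nrp1-1 nrp2-2, and at 17.5, 39, 9.42, 7.99 and 9.10 in gcn5-7 nrp1-1 nrp2-2. Like ribosomal RNA it was highest in replicates 1 and 2 of every genotype but gcn5-7. The mRNA of rpoB, the beta subunit of the plastid-encoded polymerase, showed the reverse order. It was at 1.51, 2.32, 7.05, 10.13 and 8.23 in Col-0, at 2.46, 2.95, 4.89, 13 and 8.68 in gcn5-7, at 1.82, 1.74, 3.90, 15.5 and 4.84 in nrp1-1 nrp2-2, and at 3.19, 1.66, 6.22, 15.5 and 7.35 in gcn5-7 nrp1-1 nrp2-2. Replicates 1 and 2 were the lowest of every genotype, and replicate 4 the highest. The mRNA of rpl16, a protein of the large ribosomal subunit, was lowest in replicates 1 and 2 of Col-0, at 3.17 and 11.3 against 11.8 to 24.7 in replicates 3 to 5, but in gcn5-7 its lowest library was replicate 3 (6.07, against 6.22 and 7.85 in replicates 1 and 2). Replicate number thus went with the makeup of the chloroplast RNA as well as its amount; what a replicate number stands for (a batch, a day or a growth tray) is not given in the labels.

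**Figure D2:**
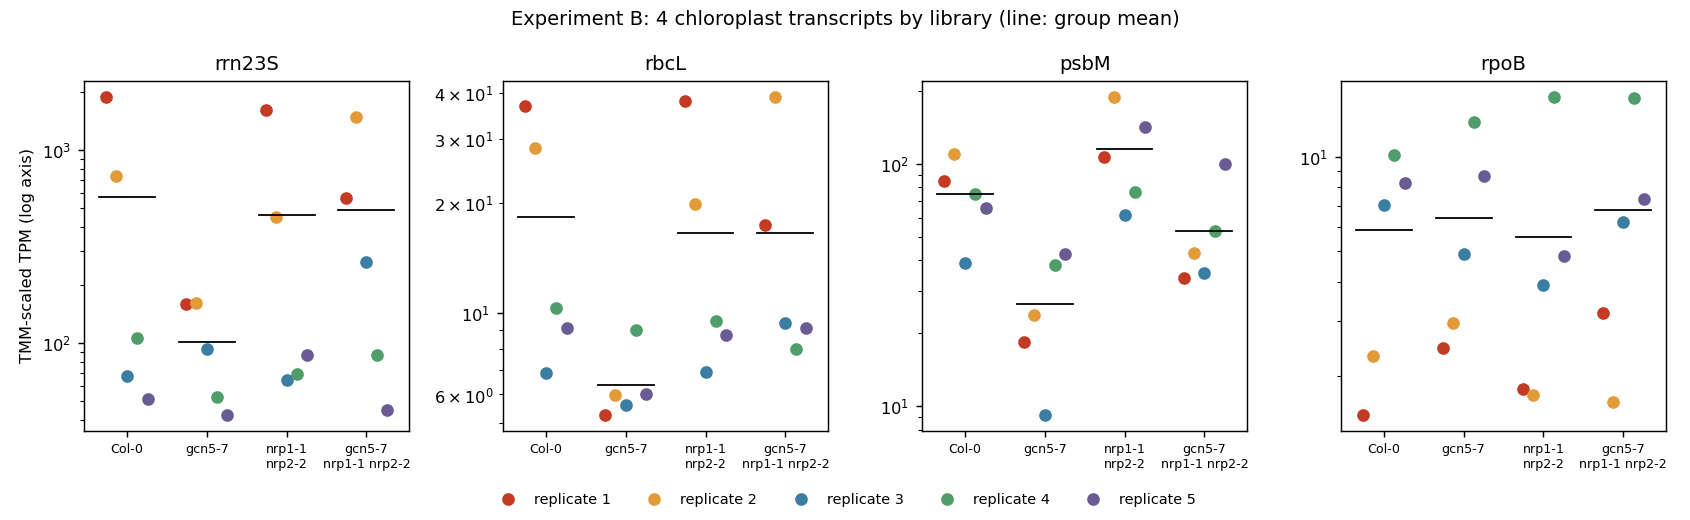
Levels of rrn23S (ATCG01180), rbcL, psbM and rpoB in each library of experiment B (TMM-scaled TPM, log axes), by genotype, with points coloured by replicate number and a line at the group mean. Replicates 1 and 2 are the highest points for rrn23S and the lowest for rpoB in every genotype, and psbM is lower in gcn5-7 (9.23 to 42.5) than in most Col-0 libraries (39.1 to 109).

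In experiment B, 14 of the 96 members fell in gcn5-7 against Col-0 and none rose. Over all 19507 genes tested 26.2% were called, 14.7% lower, so the members' share of lower calls, 14.6%, was close to that of the whole table. The median log2 fold change was -0.70 over the members and 0.06 over all genes. Those called were 3 photosystem II genes of 15, 2 cytochrome b6f genes of 4, 1 ATP synthase gene of 4, 1 NDH gene of 3, 3 ribosomal protein genes of 17, 3 rows of transfer RNA length of 20 and 1 of the 18 rows whose name was not settled. None of the 6 ribosomal RNA, 3 photosystem I or 3 polymerase members passed the test, nor did rbcL (-1.12 ± 0.48, adjusted p = 0.0884).

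The members called lower were mostly short. Of 13 protein genes of up to 200 bases 6 were called lower, and none of the 11 of 1000 bases or more. The median log2 fold change was -1.18 over the short genes and -0.59 over the long ones, so the long genes were lower as well. Calls among genes of like length over the whole table were not counted, and the part of length was not tested. The small cytochrome b6f subunit gene petL was at 18.5, 22.2, 7.54, 16.8 and 20.5 in Col-0 and at 3.17, 7.30, 1.12, 5.52 and 3.45 in gcn5-7, with no overlap. It fell by 1.89 ± 0.42 on the log2 scale (SE; limma adjusted p = 0.00398), on 1 to 7 reads a library in gcn5-7. The mRNA of rpl32, a protein of the large ribosomal subunit, was at 160, 265, 77.4, 127 and 135 in Col-0 and at 29.4, 32.1, 26.4, 70.4 and 68.1 in gcn5-7. All gcn5-7 libraries lay below all Col-0 libraries, and rpl32 fell by 1.75 ± 0.40 (limma adjusted p = 0.00479).

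For psbM, whose sequence is given above with that of petL, the Col-0 libraries were at 84.8, 109, 39.1, 75.3 and 65.9 and the gcn5-7 libraries at 18.4, 23.8, 9.23, 38.2 and 42.5. Only Col-0 replicate 3 overlapped gcn5-7, and psbM fell by 1.57 ± 0.39 (limma adjusted p = 0.00802). The genes of the other large-subunit ribosomal proteins called, rpl33 and rpl20, fell by 1.61 ± 0.38 (adjusted p = 0.00591) and 1.05 ± 0.28 (adjusted p = 0.0118), both by limma. The row ATCG00450, of transfer RNA length, fell by 2.30 ± 0.67 (limma adjusted p = 0.0186). The remaining calls were psbI, psbK, petN, atpE of the ATP synthase, ndhC of the NDH complex, ATCG00200, ATCG00610 and ATCG00065, with adjusted p from 0.0218 to 0.0498 and log2 fold changes from -1.86 to -0.87. There were 6 members with all gcn5-7 libraries below all Col-0 libraries, against 11.2% of all genes tested.

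These calls depended on which libraries entered and on the model. For the settings that follow, the share of all genes called was not computed. With the replicate number as a block more members were called, a count given with the processing below. Same-numbered Col-0 and gcn5-7 libraries correlated at 0.31 to 0.60 in replicates 2 to 5 but at 0.02 in replicate 1. The block was therefore not taken as a pairing here. Without replicate numbers 1 and 2 of every genotype 1 member was called, and 7 were called when columns were scaled to equal sums over nuclear genes. That scaling moved the median of all genes from 0.06 to 0.41 and of the members to -0.43. When libraries were left out 1 at a time, 6 members were called on dropping replicate 1 or replicate 3 of gcn5-7, and 9 on dropping its replicate 2. Dropping Col-0 replicate 2 left 7, dropping its replicate 1 or 4 left 9, and dropping its replicate 3 gave 22. Markers moved with the same contrast: the 5 green leaf markers summed to 45700 to 51900 ppm in Col-0 and 16700 to 35200 in gcn5-7, with 4 of 5 called lower. The 5 root markers summed to 29.6 to 56.7 in Col-0 and 99.8 to 259 in gcn5-7, with 2 tested and both called higher and 1 listed at 0 in every library. That sum was nearly all PYK10, at a mean of 48.0 TMM-scaled TPM in Col-0 and 120 in gcn5-7. The other marker called, RCI3, was at 1.07 and 2.45. The rest were near 0 in both groups and none was higher in gcn5-7, with CASP1 at 0.362 and 0.0168. The part of tissue makeup in the chloroplast result was not tested.

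Nuclear genes of the same complexes were called lower more often than the chloroplast members, most of which were not called. Of 30 nuclear genes for photosynthetic subunits 27 were called lower in gcn5-7 of B and none higher, with a median log2 fold change of -1.16. PSBQ2, a photosystem II subunit, fell from 1570 ± 321 to 655 ± 259 (SD, n = 5 each; log2 fold change -1.35, limma adjusted p = 0.00187). PETM, a cytochrome b6f subunit, fell by 1.47 (limma adjusted p = 0.0048), and ATPD, the ATP synthase delta subunit, fell from 1570 ± 324 to 789 ± 220 (SD, n = 5 each; limma adjusted p = 0.00487). Of 21 nuclear genes of plastid transcription 1 rose and 4 fell, and of 11 of plastid RNA processing 2 fell, where 11.6% of all genes were called higher and 14.7% lower. RPOTMP, a phage-type polymerase of plastids and mitochondria, rose from 0.763 ± 0.447 to 2.88 ± 0.490 (SD, n = 5 each; limma adjusted p = 0.00298). PTAC6 and FSD2, proteins associated with the plastid-encoded polymerase, fell by 0.90 (limma adjusted p = 0.00304) and 1.09 (limma adjusted p = 0.00384). The processing genes that fell encode the RNA-binding proteins CSP41B (-1.14, limma adjusted p = 0.00174) and CSP41A (-1.27, limma adjusted p = 0.011).

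**Figure D3:**
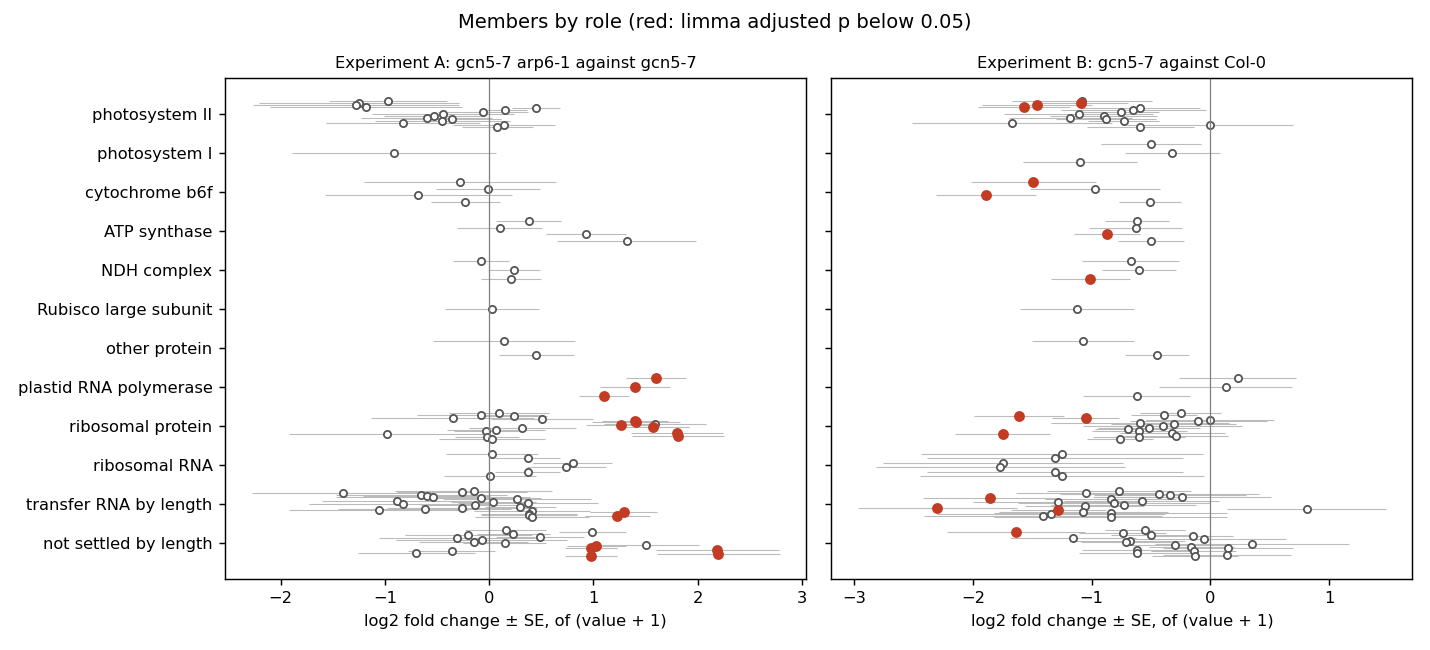
Log2 fold change ± SE of each member (horizontal axis, of value + 1) by role, for gcn5-7 arp6-1 against gcn5-7 in experiment A and for gcn5-7 against Col-0 in experiment B, with members at a limma adjusted p below 0.05 in red. The called members of A are polymerase, ribosomal protein and unsettled or transfer RNA rows, all higher, and those of B are photosystem II, cytochrome b6f, ATP synthase, NDH, ribosomal protein, transfer RNA length and unsettled rows, all lower.

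Few chloroplast members were called in the NRP mutants against Col-0. Libraries of 1 genotype spread widely, so few calls do not show that the levels were alike. In nrp1-1 nrp2-2 1 member was called, where 0.39% of all genes were called (0.297% higher, 0.0923% lower). It was atpA, the alpha subunit of the ATP synthase. It was at 9.56, 9.40, 7.44, 9.02 and 14.8 in Col-0 and at 4.04, 1.5, 2.78, 6.89 and 3.32 in nrp1-1 nrp2-2, with no overlap, and fell by 1.30 ± 0.27 (limma adjusted p = 0.0368). With the replicate number as a block, which pairs these groups, 2 members were called, both lower, and 0 without replicates 1 and 2. The call for atpA was lost on leaving out any single library except nrp1-1 nrp2-2 replicate 4. In the triple mutant against Col-0 0 of 96 members were called by limma, where 2.43% of all genes were called (1.28% higher, 1.15% lower), with 4 members at an unadjusted p under 0.05. The replicate block called 3, all lower. For the block and the left-out libraries the share of all genes called was not computed.

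Against gcn5-7 the triple mutant had 2 members higher, where 3.21% of all genes were called (2.08% higher, 1.14% lower). The gene petN was at 1.13, 4.45, 1.2, 3.36 and 8.27 in gcn5-7 and at 16.7, 20.3, 13.4, 10.09 and 16.9 in the triple mutant, on 1 to 9 and 11 to 19 reads. The libraries did not overlap, and petN rose by 2.01 ± 0.53 on the log2 scale (limma adjusted p = 0.043). ATCG00200 rose by 2.15 ± 0.56 (limma adjusted p = 0.0428), from 0.00 to 8.15 in gcn5-7 to 4.99 to 20.3. With the replicate block, which pairs these groups, 15 members were called, all higher, and without replicates 1 and 2 or with equal nuclear sums 0 were. The share of all genes called was not computed under these settings, so the counts cannot be set against the whole table. Leaving out triple mutant replicate 2, 4 or 5, or gcn5-7 replicate 1, 2 or 3, left 0, and leaving out triple mutant replicate 1 left 1. Against nrp1-1 nrp2-2 0 members were called by limma (0.713% of all genes, 0.103% higher and 0.61% lower; 9 members at an unadjusted p under 0.05). The replicate block called 3, of which 1 was higher and 2 lower, and 1 member was called without nrp1-1 nrp2-2 replicate 4. The test of the difference between the triple mutant and the sum of its parents called 0 members (limma; 0.041% of all genes, 0.0205% in each direction; 9 members at an unadjusted p under 0.05). The comparisons with Col-0 share its libraries.

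Experiment A showed another pattern. Ribosomal RNA was at 0.00479 to 0.00897% of the column sum in every library, below every library of B, although the tables were normalised separately. The 23S ribosomal RNA (ATCG01180) was at 20.1 and 13.1 in Col-0, 13.5, 10.8 and 13.8 in gcn5-7, 20.01, 20.4 and 16.7 in arp6-1, and 16.4, 17.0 and 16.3 in gcn5-7 arp6-1. The members' share of the column sum was 0.224 and 0.0856% in Col-0, 0.134, 0.0821 and 0.0892% in gcn5-7, 0.246, 0.123 and 0.104% in arp6-1, and 0.111, 0.101 and 0.107% in gcn5-7 arp6-1. Replicate 1 was the highest of Col-0, gcn5-7 and arp6-1, and the 3 double mutant libraries lay close together.

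The excess of replicate 1 lay mostly in short protein genes. Rows of transfer RNA length were higher too, at 400 ppm in Col-0 replicate 1 against 127 in replicate 2. So was psbB, of 1527 bases, at 14.2 against 2.17 TMM-scaled TPM. The 9 protein genes of 1000 bases or more together were lower, at 38.2 against 53.8 ppm. The most abundant member of A, rpl32, was at 979 and 95.5 in Col-0, 419, 96.1 and 109 in gcn5-7, 1268, 272 and 181 in arp6-1, and 110, 65.2 and 77.8 in gcn5-7 arp6-1. Next came psbM, at 615 and 89.1 in Col-0, 348, 69.7 and 74.7 in gcn5-7, 851, 147 and 121 in arp6-1, and 65.4, 39.1 and 58.6 in gcn5-7 arp6-1. The other members of highest mean were psbI at 84.3, psbK at 72.2, petL at 63.6, psaJ of photosystem I at 57.6, ATCG00200 at 52.4, rpl2 (ATCG01310) at 48.3, petN at 43.9 and ATCG00450 at 42.8. All but rpl2 were 186 bases or shorter.

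The sum of the 13 protein genes of up to 200 bases over the sum of the 9 of 1000 bases or more was 38.2 and 6.57 in Col-0. It was 26.9, 8.83 and 6.33 in gcn5-7, 56.6, 13.9 and 11.2 in arp6-1, and 4.77, 2.91 and 3.76 in gcn5-7 arp6-1. Replicate 1 of the first 3 genotypes stood apart, and all 3 double mutant libraries were the lowest of A. Spearman's rho between exon length and a member's log2 deviation from its mean over libraries, across 51 protein genes of 1 library, was -0.54, -0.46 and -0.55 in replicate 1 of Col-0, gcn5-7 and arp6-1 and 0.52 to 0.56 in the double mutant. It was 0.43 in Col-0 replicate 2, 0.23 and 0.46 in gcn5-7 replicates 2 and 3, and -0.26 and 0.09 in arp6-1 replicates 2 and 3, so a positive value was not particular to the double mutant. Genes of a library share its depth and fragment sizes and are not independent. The column sums of the same 3 libraries were 1790505, 1388374 and 2078175, against 715741 to 1098191 in the other 8, so their high values were not a matter of the chloroplast rows alone. In B the ratio ran from 1.37 in triple mutant replicate 2 to 13 in nrp1-1 nrp2-2 replicate 2.

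**Figure D4:**
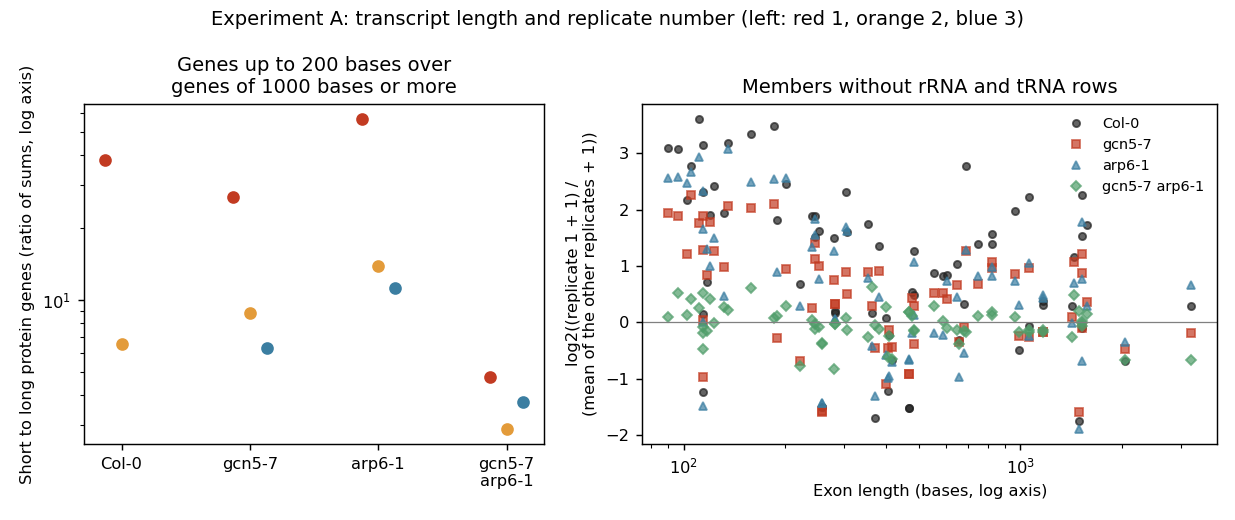
Left, the summed level of short over long chloroplast protein genes in each library of experiment A (log axis), by genotype, from 2.91 in gcn5-7 arp6-1 to 56.6 in arp6-1 replicate 1. Right, the log2 ratio of replicate 1 to the mean of the other replicates for each member without ribosomal and transfer RNA rows (vertical axis) against its exon length (bases, log axis), with the shortest genes highest in Col-0, gcn5-7 and arp6-1.

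In gcn5-7 against Col-0 of A 0 of 97 members were called by limma, where 0.142% of all 18322 genes were (0.071% in each direction), and 4 members had an unadjusted p under 0.05. The median log2 fold change was -0.51 over the members and 0.01 over all genes. In arp6-1 against Col-0 0 members were called by limma, where 0.0164% of all genes were, and 1 had an unadjusted p under 0.05. Of the nuclear lists no gene was called in either comparison. In gcn5-7, 14 members had every library below both Col-0 libraries and none had every library above, where 8.08% and 9.13% of all genes tested did.

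In gcn5-7 arp6-1 the polymerase genes and several ribosomal protein genes rose against gcn5-7. Against gcn5-7 16 members rose and none fell, 16.5% of the members, where 13.7% of all genes were called, 9.79% higher and 3.88% lower. They were all 3 polymerase members, 6 of the 18 ribosomal protein rows, 2 rows of transfer RNA length and 5 rows whose name was not settled. Of these, rpoC1 was a member only through its level in the double mutant. None of the 15 photosystem II, 4 cytochrome b6f, 4 ATP synthase and 6 ribosomal RNA members passed the test. Against arp6-1 10 members rose and none fell, 10.3% of the members, where 14.8% of all genes were called, 11.9% higher and 2.96% lower, so the share of higher calls was near that of the whole table. They were 2 of the 3 polymerase members, 5 ribosomal protein rows and 3 rows whose name was not settled. Against Col-0 1 member rose, where 2.06% of all genes were called and 1.69% were higher. The median over members was 0.09 against gcn5-7 and -0.52 against arp6-1, beside 0.12 over all genes in both.

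The gene rpoC1 encodes the beta′ subunit of the plastid-encoded polymerase. It was at 0.157 and 0.855 in Col-0, 0.128, 0.500 and 0.611 in gcn5-7, 0.060, 0.324 and 0.354 in arp6-1, and 2.1, 3.62 and 4.26 in gcn5-7 arp6-1, where it rested on 149 to 297 reads. Every double mutant library was above every other library. No library of the other genotypes reached 1, so rpoC1 passed the limit of 1 only through the double mutant. Its selection and its rise are therefore not independent, and its values and calls are given as a description. The log2 fold change was 1.53 ± 0.32 against Col-0 (limma adjusted p = 0.0403), 1.60 ± 0.29 against gcn5-7 (adjusted p = 0.00699) and 1.77 ± 0.29 against arp6-1 (adjusted p = 0.0058). The neighbouring rpoB was at 7.89 and 6.25 in Col-0, 4.05, 4.45 and 5.02 in gcn5-7, 8.92, 5.66 and 4.86 in arp6-1, and 9.62, 15.7 and 16.1 in the double mutant. It rose against gcn5-7 (1.40 ± 0.34, limma adjusted p = 0.0241), and against arp6-1 its change was 0.99 ± 0.34 (limma adjusted p = 0.0671). The alpha subunit gene rpoA was at 0.396 to 0.821 in gcn5-7 and 2.1 to 2.63 in the double mutant, and rose by 1.1 ± 0.24 (limma adjusted p = 0.0155). The fourth subunit gene, rpoC2, had a mean of 0.273 in A and was not a member.

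Both inverted-repeat rows of rps7, a protein of the small ribosomal subunit, rose. The row ATCG01240 was at 0.684 and 3.80 in Col-0, 0.932, 2.13 and 3.10 in gcn5-7, 0.651, 1.26 and 1.90 in arp6-1, and 10.2, 10.6 and 7.26 in the double mutant. Its change was 1.81 ± 0.44 against gcn5-7 (limma adjusted p = 0.0237) and 2.21 ± 0.44 against arp6-1 (limma adjusted p = 0.0126), with no overlap in either. The small-subunit gene rps3 was at 1.53, 2.33 and 2.12 in gcn5-7 and 6.41, 7.66 and 9.72 in the double mutant, a change of 1.57 ± 0.35 (limma adjusted p = 0.0173). The large-subunit gene rpl16 rose by 1.27 ± 0.34 against gcn5-7 (limma adjusted p = 0.0346) and by 1.19 ± 0.34 against arp6-1 (limma adjusted p = 0.0427). The rows ATCG00905 and ATCG01230, of 258 bases each and with nearly equal values, rose by 2.19 and 2.2 against gcn5-7 (limma adjusted p = 0.0338 and 0.0331).

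**Figure D5:**
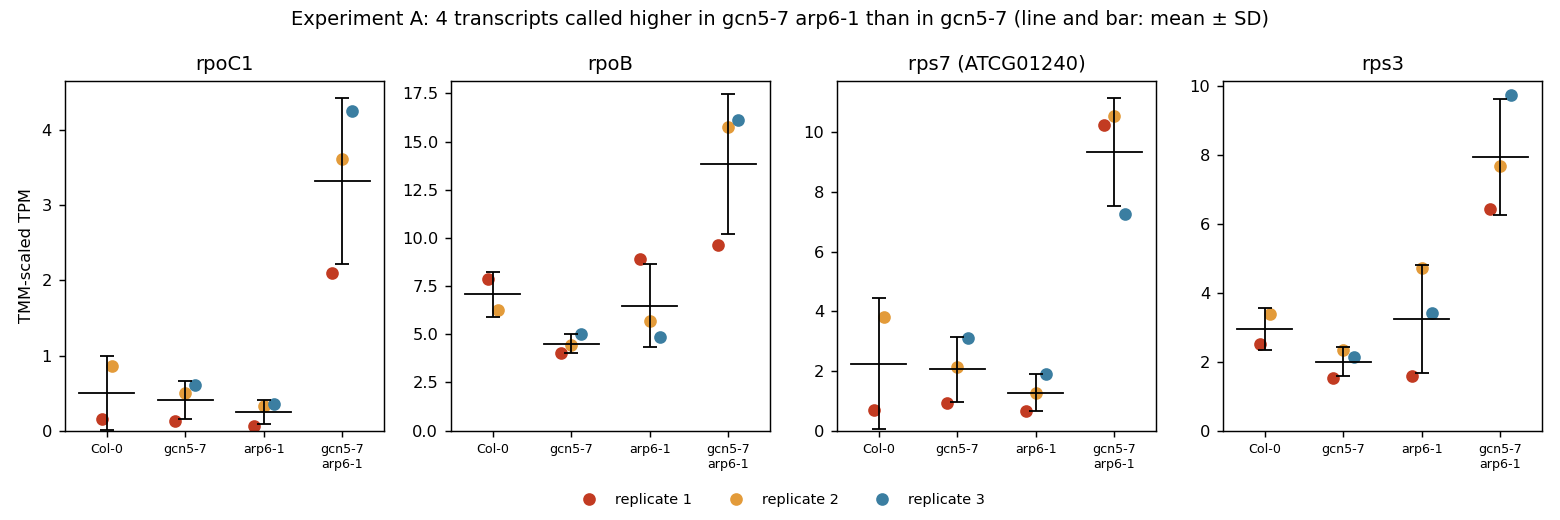
Levels of rpoC1, rpoB, rps7 (ATCG01240) and rps3 in each library of experiment A (TMM-scaled TPM, linear axes from 0), by genotype, with points coloured by replicate number and the mean ± SD. The 3 gcn5-7 arp6-1 libraries are above all libraries of gcn5-7 and arp6-1 in each panel, at 2.1 to 4.26 for rpoC1, which was a member only through these libraries.

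Several of these genes are neighbours. In the RefSeq plastid genome, rpoC1 (Pltd:20251-23084) and rpoB (Pltd:23111-26329) lie side by side on the minus strand. The genes rpl16 (Pltd:81189-82652) and rps3 (Pltd:82826-83482) also follow each other on the minus strand. The gene rpl14 (Pltd:80696-81064) lies beside rpl16, and its change against gcn5-7 was 1.59 ± 0.49 (limma adjusted p = 0.0549). Neighbouring rows can share transcripts, and whether reads were assigned by strand is not given in the sources used here.

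The count of higher members against gcn5-7 varied with the libraries used. The share of all genes called was not computed for these sets of libraries. Dropping replicate 2 or 3 of gcn5-7 arp6-1 left 0, and dropping its replicate 1 left 5. Dropping gcn5-7 replicate 1 left 1, and dropping its replicate 2 left 3. Without replicate number 1 of every genotype 26 members were called, 24 higher and 2 lower. Against arp6-1 the count was 0 without double mutant replicate 2, 2 without replicate 3, 4 without replicate 1, and 1 without arp6-1 replicate 1 or 2. Without replicate number 1 of every genotype it was 36, 18 higher and 18 lower. Against Col-0 it was 0 on dropping replicate 2 or 3 of the double mutant or replicate 1 of Col-0, and 39 on dropping replicate 2 of Col-0 (8 higher, 31 lower). The long genes and the double mutant's low ratio of short to long genes go together in these libraries, and the part of length in the result was not tested. The green leaf markers summed to 45200 to 48100 ppm in the double mutant, 23200 to 35800 in gcn5-7 and 34600 to 44200 in arp6-1. The root markers summed to 40.8 to 157, 16.6 to 110 and 4.46 to 30.2 in the same order. Those sums were mostly PYK10 (means of 67.2, 58.3 and 19.4 TMM-scaled TPM). None of the leaf or root markers was called, and their part was not tested.

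A few nuclear genes of the plastid expression machinery rose in the double mutant against gcn5-7, where 9.79% of all genes did. Of 21 transcription genes 3 rose and none fell, and of 11 RNA processing genes 4 rose and none fell. Against arp6-1, where 11.9% of all genes rose and 2.96% fell, 2 transcription genes rose and 1 fell, and 3 processing genes rose and none fell. The transcription gene that fell was TRXZ, a thioredoxin associated with the plastid-encoded polymerase (log2 fold change -1.73, limma adjusted p = 0.0134). The sigma factor gene SIG2 was at 4.23 to 30.5 in gcn5-7 and 89.3 to 107 in the double mutant (log2 fold change 2.78, limma adjusted p = 0.043). The endonuclease gene RNE was at 0.475 to 3.35 and 12.5 to 18.2 (log2 fold change 2.68, limma adjusted p = 0.0114). The others called were PTAC3 and SIG6 of transcription and MRL1, RNJ and PNPASE of RNA processing, and all 7, like TRXZ, were named after their values were seen. Of the 30 photosynthetic subunit genes 0 were called by limma in any comparison of A. Against Col-0 no gene of either machinery list was called, with median log2 fold changes of 1.05 for transcription and 1.59 for processing beside 0.18 over all genes. The interaction test called 0 chloroplast members (limma; 1.38% of all genes; 18 members at an unadjusted p under 0.05) and 11 without Col-0 replicate 1.

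The 2 copies of an inverted-repeat gene are identical in the RefSeq genome, with 0 differing bases for each of rrn16S, rrn23S, rrn4.5S, rps7, rpl23, rpl2, ndhB and ycf2. Their rows therefore cannot be told apart by sequence. The counts of members are counts of rows, in which both copies enter, so the 6 ribosomal RNA members are 3 genes. The median ratio of the copies' values over libraries was 1.0 for all of the 6 names with 2 member rows but rpl2, and it ran from 0.98 to 1.04 for rps7 and from 0.98 to 1.03 for rpl23 in A. In B it ran wider on few reads, from 0.94 to 1.12 for rps7, from 0.86 to 1.03 for rpl23 and from 0.75 to 2.0 for rrn4.5S, where the copies differed by at most 4 reads. The rows of rpl2, a protein of the large ribosomal subunit, differed in 1 direction, and ATCG00830 stood at 0.64 to 0.78 times ATCG01310 in A and at 0.62 to 0.79 times in B, in all 31 libraries. How the authors' counting assigned reads with 2 equal matches is not given in the sources used here.

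Rows of the mitochondrial genome were examined as the other organelle. In B their share was 0.00529 to 0.0256% for nrp1-1 nrp2-2 and 0.00764 to 0.0291% for the triple mutant, against 0.0314 to 0.0638% for Col-0, and 0.00600 to 0.0170% in gcn5-7 arp6-1 against 0.0565 and 0.0599% in Col-0 of A. The chloroplast share did not separate the same groups: the libraries of nrp1-1 nrp2-2, the triple mutant and Col-0 overlapped in B.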

How the data were processed

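RNA was sequenced from 31 seedling libraries in 2 experiments, deposited as separate tables that were never pooled. The values are a signal, TPM scaled by TMM by the authors per the file headers. Per the submitters' processing notes, fastp 0.23.4, HISAT2 2.2.1 and the build TAIR10 were used; which program counted reads, with what strand setting, and whether the libraries were poly(A)-selected: not given in the sources used here. The members, gene lists and tests were chosen with earlier results of these data known.

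The worth of 1 read in each library was recovered from the steps between low values. Of values worth 20 reads or fewer, the share whole to a tolerance of 0.05 was 98.82 to 99.48% (A) and 99.38 to 99.66% (B). Chloroplast rows were named by exon length against RefSeq TAIR10.1, since no table paired the IDs with names, and all 71 names so found equal those on a list written by hand. Shares are sums of members over the column sum, with no test.

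Rows with a mean of at least 1 were tested as log2(value + 1) with limma 3.58.1 (R 4.3.3; mean-variance trend, robust), all groups of a table in 1 fit, with Benjamini-Hochberg adjustment over all genes and a threshold of 0.05. Log2 fold changes on this scale understate changes of low genes. The fit was tested on simulated data. Every pair of replicates differed by more than sampling noise, by at least 17.3 times the variance that counting gives. Alternatives were a pseudocount of 0.1, no filter, equal sums over nuclear genes, a replicate block, only the groups compared, and leaving out libraries. In B, replicate numbers pair the samples (each correlation of same-numbered deviations over 0.1, from 0.12 to 0.80) when Col-0 is compared with nrp1-1 nrp2-2 or the triple mutant, and when the triple mutant is compared with gcn5-7 or nrp1-1 nrp2-2. This pairing comes from the data, not the labels. The main fit did not use it, so the fold changes and adjusted p given for these comparisons are unpaired. Genes are named by a rule: the 10 of highest mean, the highest of each role in B, up to 6 called in each comparison, the 3 highest and lowest ratios of Col-0 to gcn5-7 share, those at the limit, their copies, and the 3 nuclear genes called first per list. Other genes, among them rpoC2, rpl14, rpl16 and the calls beyond 6, were chosen after their values were seen. Some members are not reported here by name.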

Additional observations from a re-analysis of the deposited data

Results flagged for a closer look

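A library far from the others of its group was looked for in 132 groups of 5 libraries and found in 17. Chance gives about 1 in 20 for a single group. The groups share libraries and near-equal rows, such as both copies of rrn23S and of rrn4.5S. The 17 are therefore not independent, and whether they exceed chance was not tested. Replicate 1 of nrp1-1 nrp2-2 in experiment B was far above its group in the chloroplast share (0.548%), the ribosomal RNA share (0.448%), rrn23S (1630 TMM-scaled TPM in both ATCG00950 and ATCG01180) and rrn4.5S (95.6 in ATCG00960 and 98.6 in ATCG01170). Replicate 2 of nrp1-1 nrp2-2 was far above its group for psbI (147), rpl33 (34.0) and rpl32 (489). Replicate 2 of the triple mutant stood out for ATCG00930 (214) and ATCG01200 (218), and its replicate 5 for psbM (99.7). Further single libraries were Col-0 replicate 5 for atpA (14.8), nrp1-1 nrp2-2 replicate 4 for rpoB (15.5), gcn5-7 replicate 4 for rbcL (8.98), and replicate 5 of gcn5-7 (1.13) and of nrp1-1 nrp2-2 (2.83) for ATCG00410.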

How the results depend on the processing

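Fold changes were followed across the alternatives only for the called members that the naming rule chose, those of lowest adjusted p in each comparison. None of these changed sign under any alternative tried. Of their values, 205 kept their side of the threshold and 86 did not. The signs of the other called members were not checked. The counts below are of members alone. The share of all genes called was not computed under any alternative, so whether a shift was particular to the chloroplast rows was not tested. With a pseudocount of 0.1, gcn5-7 arp6-1 called 0 members against Col-0, 10 against gcn5-7 and 4 against arp6-1. With no filter the counts were 2 against Col-0, 2 for the interaction in A, and 1 for the triple mutant against gcn5-7. Equal nuclear sums gave 16 against arp6-1, 7 for gcn5-7 in B, 0 for nrp1-1 nrp2-2 and 0 for the triple mutant against gcn5-7. That scaling moved the median of all genes by more than 0.1 in most comparisons, as in gcn5-7 arp6-1 against Col-0 from 0.18 to 0.80. Only the groups compared gave 0 for gcn5-7 arp6-1 against Col-0, 34 against arp6-1, 0 for nrp1-1 nrp2-2, and 1 for the triple mutant against gcn5-7. A replicate block gave 10 for gcn5-7 arp6-1 against Col-0, 44 against arp6-1 (18 higher, 26 lower), 15 for the interaction in A and 1 in B, 39 for gcn5-7 in B, 2 for nrp1-1 nrp2-2, and 3, 15 and 3 for the triple mutant against Col-0, gcn5-7 and nrp1-1 nrp2-2. Same-numbered samples correlated at 0.40 to 0.86 among Col-0, gcn5-7 and arp6-1 of A, where the block called 0 members against Col-0. With gcn5-7 arp6-1 they correlated at -0.03 to 0.24, and for gcn5-7 against Col-0 in B at 0.02 for replicate 1, so there the block was not taken as a pairing.

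Without replicate number 1 in A the counts were 4, 26 and 36 for gcn5-7 arp6-1 against Col-0, gcn5-7 and arp6-1, and 26 for the interaction. Without replicate numbers 1 and 2 in B they were 1 for gcn5-7, 0 for nrp1-1 nrp2-2 and 0 for the triple mutant against gcn5-7. Leaving out 1 library at a time gave 0 to 39 for gcn5-7 arp6-1 against Col-0, 0 to 11 against gcn5-7, 0 to 8 against arp6-1, 0 to 11 for the interaction in A, 6 to 22 for gcn5-7 in B, 0 to 1 for nrp1-1 nrp2-2, and 0 to 3 and 0 to 1 for the triple mutant against gcn5-7 and nrp1-1 nrp2-2. With the named ribosomal RNA rows and the rows of transfer RNA length left out, the share was 0.0836% in gcn5-7 arp6-1 of A, 0.0559% in gcn5-7 and 0.0680% in the triple mutant of B. The ratios of Col-0 to gcn5-7 share without Col-0 replicate 1 were chosen after seeing the data. The cause of these shifts was not tested. Counts of few reads limit the short genes of B.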
